A study of Sus scrofa with 12 samples.

Results

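The genes described are the dual-specificity phosphatases DUSP1, DUSP2, DUSP4, DUSP5, DUSP6, DUSP8, DUSP10 and DUSP16 and the Sprouty genes SPRY2 and SPRY4 in pig skeletal muscle. They were found in the gene count matrix by the pig Ensembl gene names, which paired each symbol with 1 identifier. All 10 had counts and passed the filter on low counts, among 14262 genes tested of 25880 listed. RNA sequencing was done on the Semimembranosus, a muscle of the hind leg, of 12 Italian Large White pigs kept on a common diet in a common environment. Pigs 1 to 6 had high intramuscular fat (the high IMF group) and pigs 7 to 12 low intramuscular fat (the low IMF group). Each group holds 3 animals labelled female and 3 labelled male, they were aged 229 to 249 days and weighed 150 to 160 kg. The paper lists the females as gilts and the males as barrows, that is, castrated males. No animal received a treatment by the labels, and each library is 1 pig, taken once, at a commercial slaughterhouse.

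The MAP kinases ERK, JNK and p38 carry signals from growth factors, cytokines and stress to the nucleus, and are switched on by phosphorylation of a threonine and a tyrosine. Dual-specificity phosphatases remove both phosphates. Many of their genes are themselves switched on within minutes to hours by the pathway they shut off, as are the Sprouty genes, whose proteins damp receptor tyrosine kinase signalling upstream of ERK. In skeletal muscle these pathways respond to contraction, injury, insulin and inflammation.

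In these muscles, DUSP1, DUSP5, DUSP6 and SPRY4 had higher mean levels in high IMF pigs with an unadjusted p of at most 0.05 each, and none passed the adjustment over all genes. DUSP1, for example, averaged 133 ± 23.9 CPM (SD, n = 6) in high IMF pigs and 74.9 ± 35.1 CPM (SD, n = 6) in low IMF pigs, where CPM are counts scaled to the size of the library. A single animal, pig 6 of the high IMF group, had the highest level of 5 of the 10 genes. The share of all genes that were highest in pig 6 was not counted. The DUSP5 level of pig 6 was 46.3 CPM, 10.0 times that of the next pig.

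Each pig had a total of 131048805 to 178013997 counts. In every pig this total exceeded the input reads that the paper lists for the sample, so the counts cannot all be independent fragments of those reads. Between pigs of a group the chi-square was 191 or more per degree of freedom. That value takes each count as an independent fragment, so it overstates the excess over sampling noise, by an amount that was not tested. DUSP2, the gene with the lowest level, had from 87 to 443 counts per pig. ACTA1, the actin of muscle fibres, ran from 14492 to 33957 CPM and CKM, the muscle creatine kinase, from 7050 to 13667 CPM, so the defining transcripts of muscle were abundant in every library. Counts of EIF1AY and KDM5D, which lie on the Y chromosome, went against the labelled sex in 6 pigs, namely 3 and 5 of the high and 7, 8, 9 and 10 of the low IMF group. Results are therefore also given without these 6 pigs, which leaves 4 high and 2 low IMF pigs. A wrong sex label and an exchange of pigs, which could also put a pig in the wrong group, cannot be told apart from these counts, and every group difference below carries this limit. Where a group difference is described below, fewer cells of a type and less RNA per cell cannot be told apart in whole muscle.

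The promoters of DUSP1, DUSP5 and SPRY2 are shown because DUSP1 had the highest level of the 10 genes and DUSP5 and SPRY2 were both highest in pig 6. Each sequence runs from 250 bases before to 50 bases after the RefSeq gene start on Sscrofa11.1, 5′ to 3′ on the gene's own strand. Capitals mark the letters of 4 motifs searched on both strands. These were the half-site of the cyclic AMP response element (TGACG), the AP-1 site (TGANTCA), the ETS site (CCGGAA) and the CArG box, which is bound by serum response factor.
DUSP1, chr16:51457674-51457973, plus strand: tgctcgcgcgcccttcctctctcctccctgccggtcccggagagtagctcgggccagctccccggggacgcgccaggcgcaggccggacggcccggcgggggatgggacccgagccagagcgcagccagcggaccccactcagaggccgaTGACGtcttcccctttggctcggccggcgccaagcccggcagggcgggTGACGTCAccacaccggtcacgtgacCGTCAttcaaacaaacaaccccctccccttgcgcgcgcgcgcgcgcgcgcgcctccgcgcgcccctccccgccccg
DUSP5, chr14:120906090-120906389, plus strand: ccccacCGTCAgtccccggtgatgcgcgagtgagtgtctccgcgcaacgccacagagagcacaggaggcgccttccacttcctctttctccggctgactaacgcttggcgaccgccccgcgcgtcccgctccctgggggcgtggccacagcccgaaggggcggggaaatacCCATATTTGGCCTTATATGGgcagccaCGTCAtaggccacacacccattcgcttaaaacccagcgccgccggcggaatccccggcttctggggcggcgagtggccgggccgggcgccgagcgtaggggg
SPRY2, chr11:52158717-52159016, minus strand: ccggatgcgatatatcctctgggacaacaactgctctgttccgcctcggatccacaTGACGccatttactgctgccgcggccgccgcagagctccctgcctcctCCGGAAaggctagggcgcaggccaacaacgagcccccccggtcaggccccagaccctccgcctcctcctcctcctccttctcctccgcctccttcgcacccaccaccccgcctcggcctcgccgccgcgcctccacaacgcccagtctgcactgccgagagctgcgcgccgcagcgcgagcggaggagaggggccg
The DUSP1 promoter held 4 cyclic AMP half-sites, of which a pair overlapped as the same stretch read on both strands. The DUSP5 promoter held 2 adjacent CArG boxes and 2 half-sites, and the SPRY2 promoter 1 half-site and 1 ETS site. Over the 19559 promoters of the annotation, 24.2% held the half-site and 1.53% a CArG box, beside 4 and 1 of the 10 genes. The ETS site was in 6 of the 10 promoters and in 17.8% of all, while the AP-1 site was in 0 of the 10 and in 6.07% of all. A match of letters is a description of the window only.

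Levels per kilobase of RefSeq exon, the scale on which genes can be compared, were led by DUSP1 with a median over pigs of 54.6 CPM per kb, followed by DUSP10 with 13.8 and DUSP6 with 3.05. Below them came DUSP16 (2.10), SPRY2 (1.71), DUSP8 (1.38), DUSP4 (0.828), DUSP5 (0.765), SPRY4 (0.474) and DUSP2 (0.441), all in CPM per kb. Of neighbours in this order, the ranges over the pigs were apart for DUSP10 and DUSP6 and overlapped for the 8 other pairs. DUSP4 exceeded DUSP5 in 6 of the 12 pigs and SPRY4 exceeded DUSP2 in 7, so these neighbours did not differ beyond their spread.

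**Figure D1:**
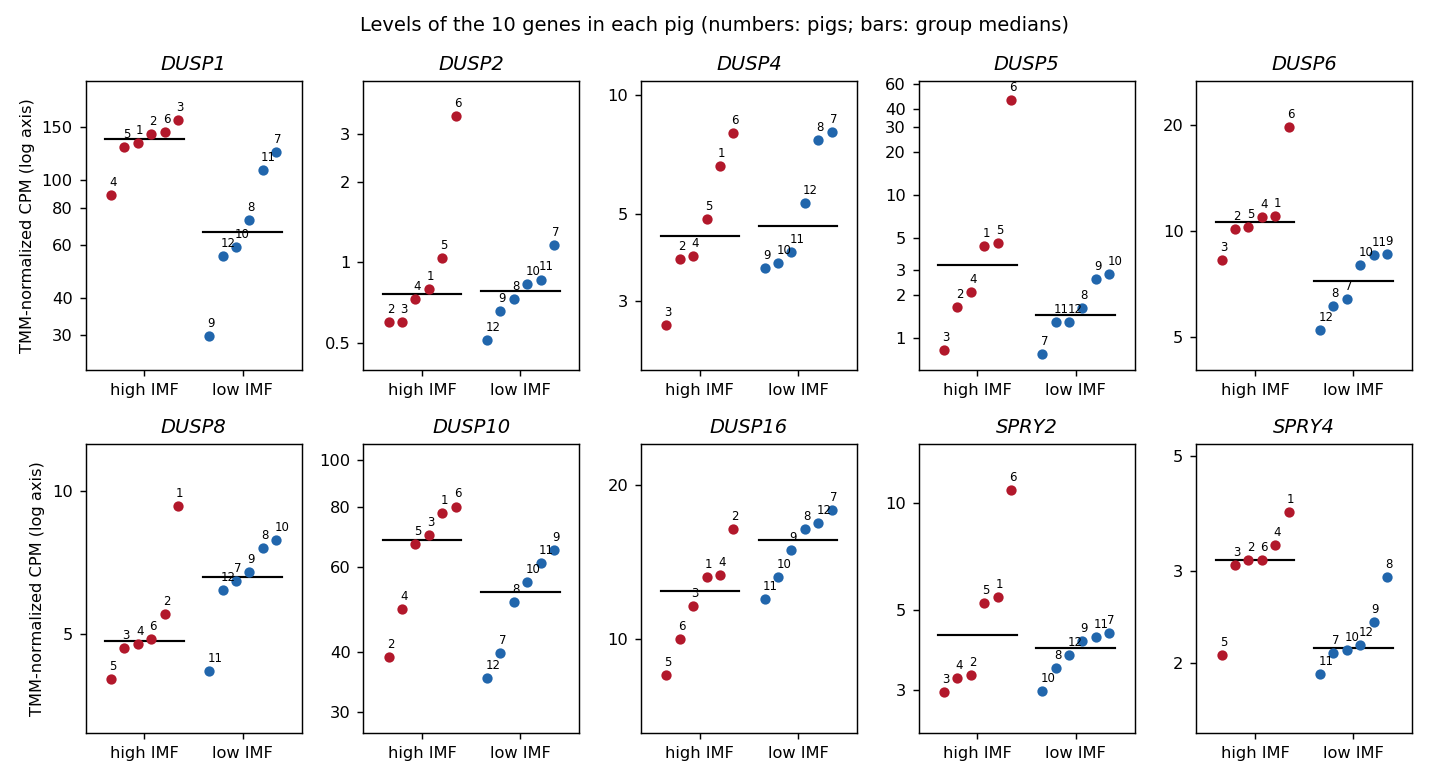
TMM-normalized CPM of each of the 10 genes on a log axis, with 1 point and number per pig and a bar at the median of the high IMF group (red, pigs 1 to 6) and the low IMF group (blue, pigs 7 to 12). The groups overlap for every gene, and pig 6 stands apart at 46.3 CPM for DUSP5, 10.8 CPM for SPRY2 and 3.51 CPM for DUSP2.

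The inducible phosphatases of the nucleus are DUSP1, which acts on p38, JNK and ERK, DUSP2 and DUSP4, which act on ERK among others, and DUSP5, which is selective for ERK. DUSP1 (ENSSSCG00000016991, chr16:51457924-51461095) ran from 89.1 to 159 CPM in high IMF pigs (median 138) and from 29.6 to 124 CPM in low IMF pigs (median 66.4). Of the 6 high IMF pigs, 5 lay above every low IMF pig, and pig 4 lay among them. Its log2FC, low over high IMF, was -0.83 with a standard error of 0.279 (edgeR's quasi-likelihood test, unadjusted p = 0.0105, adjusted p = 0.427), and the exact permutation test over every arrangement of the pigs gave p = 0.0152, where 0.00216 is the smallest it can give.

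DUSP5 (ENSSSCG00000040815, chr14:120906340-120919398) had the widest spread of the 10 genes, with a coefficient of variation over the 12 pigs of 219%, against 60.8% without pig 6. Its level ran from 0.821 to 46.3 CPM in high IMF pigs (median 3.25) and from 0.774 to 2.79 CPM in low IMF pigs (median 1.45). Pigs 1, 5 and 6 lay above every low IMF pig, and the rest of the high IMF group lay within the low IMF range. The log2FC of -2.53 (SE 0.866, unadjusted p = 0.0115, adjusted p = 0.427, edgeR) became -0.65 (SE 0.436, unadjusted p = 0.158) without pig 6, and the exact permutation test with all pigs gave p = 0.156. DESeq2 gave DUSP5 no p-value.

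DUSP2 (ENSSSCG00000035971, chr3:47052443-47054816) ran from 0.599 to 3.51 CPM in high IMF pigs (median 0.765) and from 0.516 to 1.16 CPM in low IMF pigs (median 0.783). The medians were nearly equal, and pig 6 alone lay above the low IMF range. The log2FC was -0.61 (SE 0.429, adjusted p = 0.644, edgeR) with pig 6 and 0.08 (SE 0.240) without it. DUSP4 (ENSSSCG00000015850, chr15:55491084-55508460) ran from 2.61 to 7.98 CPM and from 3.64 to 8.02 CPM, in the same order, with medians of 4.37 and 4.65. Its log2FC of 0.12 (SE 0.285, adjusted p = 0.913, edgeR) was smaller than its standard error.

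DUSP6, the cytoplasmic phosphatase that acts on ERK, had the smallest p of the 10 genes. DUSP6 (ENSSSCG00000037910, chr5:93303058-93307510) ran from 8.27 to 19.7 CPM in high IMF pigs (median 10.6) and from 5.24 to 8.62 CPM in low IMF pigs (median 7.21). High IMF pigs other than pig 3 all lay above the low IMF range. The log2FC was -0.71 (SE 0.200, unadjusted p = 0.00331, adjusted p = 0.367, edgeR), and the exact permutation test gave p = 0.00649. Without pig 6 the log2FC was -0.50 (SE 0.146, unadjusted p = 0.00448), and without the 6 pigs whose Y chromosome counts went against their label it was -0.90 (unadjusted p = 0.0323).

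The phosphatases directed mainly at JNK and p38 are DUSP8, DUSP10 and DUSP16. DUSP10 (ENSSSCG00000010831, chr10:10866446-10905852, minus strand), which overlaps an uncharacterised gene on the other strand, ran from 39.0 to 80.3 CPM in high IMF pigs (median 68.5) and from 35.3 to 65.1 CPM in low IMF pigs (median 53.4). DUSP8 (ENSSSCG00000032911, chr2:1006589-1022444, minus strand) ran from 4.02 to 9.31 CPM (median 4.82) and from 4.17 to 7.89 CPM (median 6.60). DUSP16 (ENSSSCG00000032097, chr5:59869902-59961839) ran from 8.50 to 16.4 CPM (median 12.4) and from 11.9 to 17.8 CPM (median 15.6). The ranges overlapped between the groups for all 3. For DUSP10, 4 high IMF pigs lay above every low IMF pig. For DUSP16, 3 high IMF pigs lay below every low IMF pig, and 2 low IMF pigs lay above every high IMF pig. For DUSP8, 1 high IMF pig lay above and 1 below every low IMF pig. DUSP16 varied least of the 10 genes, with a coefficient of variation of 21.1%. The log2FC was -0.31 for DUSP10 (SE 0.195, unadjusted p = 0.131), 0.24 for DUSP8 (SE 0.206, adjusted p = 0.719) and 0.32 for DUSP16 (SE 0.156, unadjusted p = 0.0611, adjusted p = 0.496), by edgeR.

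The Sprouty genes encode inhibitors of receptor tyrosine kinase signalling. SPRY4 (ENSSSCG00000036322, chr2:143877334-143891280, minus strand) ran from 2.07 to 3.90 CPM in high IMF pigs (median 3.15) and from 1.91 to 2.93 CPM in low IMF pigs (median 2.14). Again 5 of the 6 high IMF pigs lay above every low IMF pig, and pig 5 lay near the bottom of the low IMF range. The log2FC was -0.46 (SE 0.158, unadjusted p = 0.0115, adjusted p = 0.427, edgeR), the exact permutation test gave p = 0.0216, and the value without pig 6 was -0.46 (SE 0.169). SPRY2 (ENSSSCG00000009482, chr11:52153695-52158766, minus strand) ran from 2.96 to 10.8 CPM (median 4.28) and from 2.97 to 4.32 CPM (median 3.93). Its log2FC of -0.44 (SE 0.283, adjusted p = 0.612, edgeR) became -0.09 (SE 0.185) without pig 6.

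**Figure D2:**
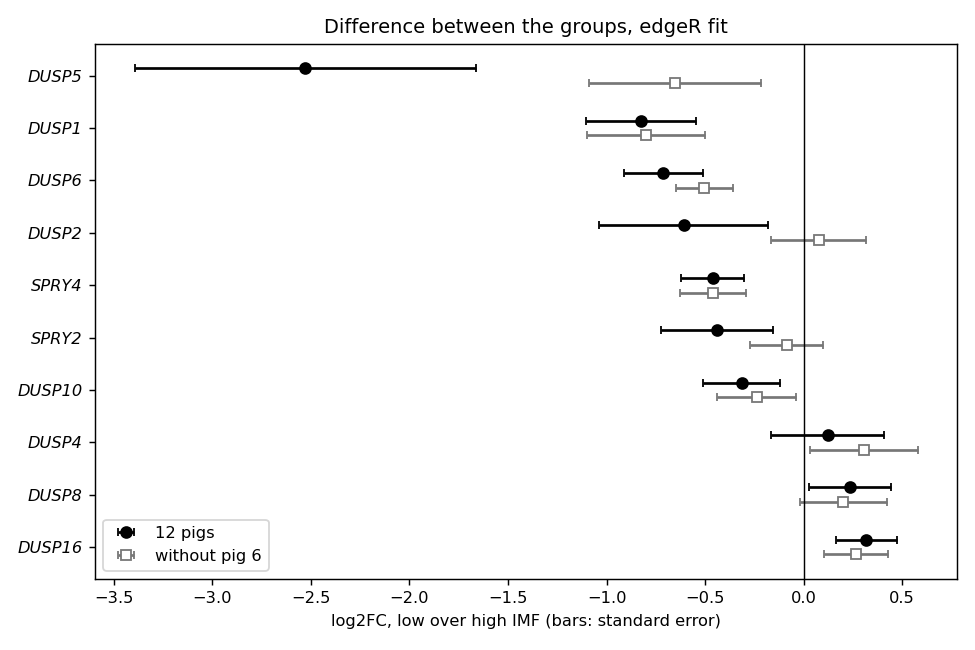
The log2FC of low over high IMF from the edgeR fit for each gene, with bars of 1 standard error, for all 12 pigs (filled) and without pig 6 (open). DUSP5 moves from -2.53 to -0.65 and DUSP2 from -0.61 to 0.08, while DUSP1 and SPRY4 barely move.

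A gene counted as called where its adjusted p was 0.05 or less and its log2FC 0.58 or more in size. By edgeR 0 of the 10 genes were called, as were 0 of all 14262 genes (0%). DESeq2's Wald test called 57 of the same genes (0.4%). Given all genes with a count, it called 64 (0.458% of the 13967 to which it gave an adjusted p). It again called 0 of the 10, with DUSP6 nearest at an adjusted p of 0.0710 and DUSP1 at 0.138 on the same genes. DUSP5 had no p-value in either Wald fit, so it could not be called there. By unadjusted p, with the same bound of 0.05, edgeR's test put 4 of the 10 past it, beside 1486 of all genes (10.4%). All 4 were higher in high IMF pigs, beside 719 genes (5.04%), and 0 of the 10 were higher in low IMF pigs, beside 767 genes (5.38%). The Wald test put 3 of the 10 past this bound, DUSP1, DUSP6 and SPRY4, all higher in high IMF pigs. DUSP5, to which that test gave no p-value, could not pass it. Of the 14223 genes with a p-value from the Wald test, 5.62% passed in that direction and 12% in either. Without pig 6 there were 3 of the 10, all higher in high IMF pigs, beside 3.34% of genes tested in that direction, namely DUSP1, DUSP6 and SPRY4. Without the 6 pigs in doubt by their Y chromosome counts there were 2, DUSP6 and SPRY4, beside 2.19% in the same direction. The log2FC without these 6 pigs was -0.64 for DUSP1 (unadjusted p = 0.0801), -3.39 for DUSP5 (unadjusted p = 0.0654) and -0.73 for SPRY4 (unadjusted p = 0.00783), by edgeR. DUSP1, DUSP6 and SPRY4 stayed past the bound in 12 of 12 fits that each left out 1 pig, and DUSP5 in 11. DUSP5 also missed it with limma-voom (log2FC -1.16, unadjusted p = 0.179) and with labelled sex as a covariate in edgeR (-1.94, unadjusted p = 0.0722). With sex read from the Y chromosome counts as the covariate, DUSP5 stayed past it (-2.22, unadjusted p = 0.0164, edgeR). The log2FC was below 0 for 7 of the 10 genes, beside 51.6% of all genes tested, with a median of -0.45, beside -0.01. Without pig 6 it was below 0 for 6 of the 10, and their median was -0.16. In 0 of the 10 were all pigs of a group above all pigs of the other, which held for 0.659% of all genes.

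Pig by pig, the 10 genes did not form a single gradient. Pig 6 was highest of the 12 for DUSP2, DUSP5, DUSP6, DUSP10 and SPRY2 and among the 3 highest for 8 genes, while it lay below the mean for DUSP8 and DUSP16. The share of all genes highest in pig 6 was not counted, so such counts, here and below, have no background beside them. Over the lists described below they ran from 0 of 9 smooth muscle markers to 7 of 8 T cell and neutrophil markers. Pig 1 was highest for DUSP8 and SPRY4, pig 7 of the low IMF group for DUSP4 and DUSP16, and pig 3 for DUSP1. Pig 7 had the lowest TMM factor, 0.810 against 0.918 to 1.12 in the other pigs, which raises its CPM for every gene. By library size alone, pig 8 was above it for DUSP4 and pig 12 for DUSP16. Pig 12 was lowest for DUSP2, DUSP6 and DUSP10. Pig 9 had the lowest DUSP1, 29.6 CPM, while its DUSP10, 65.1 CPM, was the highest of the low IMF group.

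**Figure D3:**
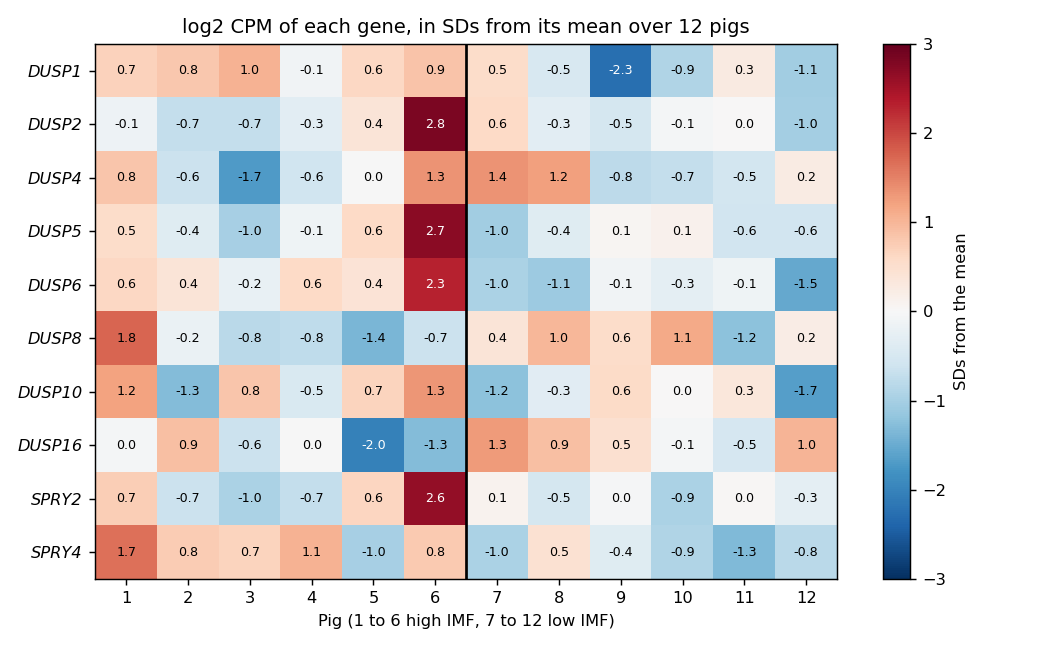
The log2 CPM of each gene in each pig, as the number of standard deviations from the gene's mean over the 12 pigs, with high IMF pigs left of the line and low IMF pigs right of it. Pig 6 stands at 2.8 standard deviations for DUSP2, 2.7 for DUSP5 and 2.6 for SPRY2, and pig 9 at -2.3 for DUSP1.

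Most markers of immune cells were also highest in pig 6, namely 7 of 8 for T cells and neutrophils and 7 of 9 for macrophages. The others were CD4, highest in pig 4, and CD163 and CSF1R, both highest in pig 7. The summed level of 8 markers of T cells and neutrophils ran from 7.61 to 32.8 CPM in high IMF pigs and from 7.04 to 11.7 CPM in low IMF pigs, and pig 6 was the 32.8. PTPRC, the pan-leukocyte marker CD45, made up 22.4 CPM of this sum, and CD3E, a defining T cell gene, was at 0.833 CPM in pig 6 and between 0.100 and 0.363 CPM in the low IMF group. CSF3R, also on this list, was at 5.74 CPM in pig 6 and between 0.127 and 0.839 CPM in the low IMF group. S100A8, a neutrophil gene, was at 0.309 CPM in pig 6 and at 0 in at least 1 pig of each group. The summed level of 9 macrophage markers was also highest in pig 6, at 187 CPM, against 90.3 to 161 CPM in the low IMF group. The sum of 7 muscle fibre markers was lowest in pig 6, at 54784 CPM, against 62648 to 89637 CPM in the low IMF group. The part of these cell types in the levels of DUSP2, DUSP5 and SPRY2 was not tested. Of the other markers, those past an unadjusted p of 0.05 were 1 of 7 endothelial (CDH5, log2FC 0.55), 1 of 9 macrophage (AIF1, -0.46), 1 of 9 fibro-adipogenic (PDGFRA, -0.42) and 1 of 7 muscle fibre genes (ATP2A1, 0.46), and 0 of 9 smooth muscle, 0 of 6 satellite cell and 0 of 8 T cell and neutrophil genes. Of all genes tested, 10.4% were past that bound in either direction. AIF1 and PDGFRA were highest in pig 6, and without it their log2FCs were -0.30 (unadjusted p = 0.119) and -0.22 (unadjusted p = 0.0499), by edgeR, which leaves 0 of 9 macrophage markers. CSF3R turned to the other side without pig 6, from a log2FC of -0.99 to 1.39 (unadjusted p = 0.0333, edgeR). That made 1 of 8 T cell and neutrophil genes higher in low IMF pigs, beside 564 of 14411 genes tested. Of the adipocyte markers 0 of 11 had an unadjusted p of 0.05 or less, and 2 of 11, higher in low IMF pigs, without the 6 pigs in doubt. In that fit 279 of 14972 genes tested were past the bound in the same direction. GPD1 made up most of their summed level, which ran from 1271 to 1545 CPM in the high and from 1152 to 1661 CPM in the low IMF group. ADIPOQ, which encodes the fat cell hormone adiponectin, ran from 19.9 to 78.3 CPM in high and from 8.40 to 76.9 CPM in low IMF pigs, and ADIPOQ and CIDEC were highest in pig 6.

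Co-variation was measured for the 45 pairs of the 10 genes as Pearson's r of log2 CPM over the 12 pigs, and 0 pairs passed an adjusted p of 0.05 by permutation, beside 13 without adjustment. The r was above 0 in 32 pairs and averaged 0.19, where the average over all pairs of genes tested was 0.000577. The median r was 0.24 with all pigs, 0.16 without pig 6 and 0.11 after the mean of its group was taken from each pig.

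DUSP5 and DUSP6, the 2 phosphatases most selective for ERK, had r = 0.83 (permutation p = 0.0021, adjusted p = 0.0637) and a Spearman rho of 0.71 (permutation p = 0.0128, adjusted p = 0.213). Without the 2 pigs farthest from the median of DUSP5, pig 6 among them, r was 0.54, and without pig 6 alone it was 0.59. It was 0.96 within the high IMF group, which holds pig 6, and 0.53 within the low IMF group. DUSP2 with SPRY2 (r = 0.87, rho = 0.64, adjusted p of r = 0.0637) and DUSP5 with SPRY2 (r = 0.85, rho = 0.42, adjusted p of r = 0.0637) had larger r, by permutation. They came to 0.51 and 0.30 without the 2 farthest pigs, pig 6 among them, and DUSP5 with SPRY2 had r = -0.61 within the low IMF group, so that this relation rests on those pigs.

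DUSP10 and DUSP16, both directed at JNK and p38, ran in opposite directions with r = -0.75 (permutation p = 0.00471, adjusted p = 0.0637) and rho = -0.81 (permutation p = 0.00218, adjusted p = 0.0981). This r was -0.69 without the 2 farthest pigs, -0.70 without pig 6, -0.68 within the high and -0.75 within the low IMF group. Among the 4 pairs with the smallest p it is the one that was nearly as large in each of these subsets.

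**Figure D4:**
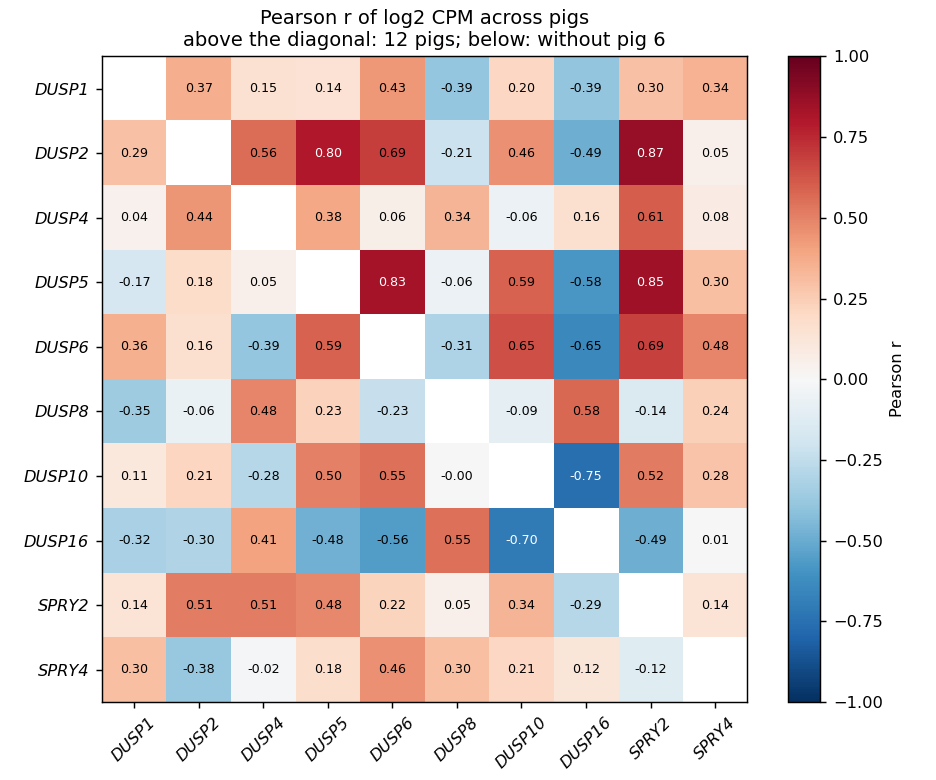
Pearson's r of log2 CPM for each pair of genes, over 12 pigs above the diagonal and over 11 pigs without pig 6 below it, with red above 0 and blue below 0. DUSP5 with SPRY2 goes from 0.85 to 0.48 and DUSP2 with DUSP5 from 0.80 to 0.18, while DUSP10 with DUSP16 is -0.75 and -0.70.

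The genes most alike to each of the 10 in level over the 12 pigs were taken as the 3 with the highest r among the genes tested that carry a symbol, so that a high r was fixed by the choice. For DUSP6 the first was EGR2, a transcription factor gene induced by ERK, with r = 0.95, and 0.89 without pig 6. For DUSP16 it was INSR, the insulin receptor, with r = 0.96, and 0.95 without pig 6. DUSP5 was most like BRIX1, CCL2 and EMP1, with r from 0.95 to 0.96, of which CCL2 encodes a chemokine that draws monocytes. DUSP2 was most like SOAT1, TNFRSF11B and LCP1, with LCP1, a leukocyte plastin, at r = 0.94, and 0.66 without pig 6. DUSP1 was most like CCNI, IFI44L and TBC1D19 with r from 0.88 to 0.91, and SPRY2 was most like ABL2, GPNMB and KLF5 with r from 0.93 to 0.95. DUSP4 was most like DNAJA3, NOG and SAP30BP, DUSP8 most like LENG9, ZSCAN25 and PPP1R37, DUSP10 most like NCBP1, PPP2R3A and VASP, and SPRY4 most like CRYBA1, RNF138 and QSER1, all with r from 0.84 to 0.91. SNORA31 and CHSY1 followed EGR2 for DUSP6 with r = 0.94, and WIPI2 and SPNS1 followed INSR for DUSP16.

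Other genes of the pathway were taken from lists, each described by how many genes had an unadjusted p of 0.05 or less in edgeR's test, which called none of them. Of all genes tested, 5.04% were past that bound and higher in high IMF pigs, and 5.38% past it and higher in low IMF pigs. Among ERK-responsive transcription factors, 6 of 18 were higher in the high and 1 in low IMF pigs, for a median log2FC of -0.33. EGR2 had a log2FC of -1.02 (SE 0.326, adjusted p = 0.420) and IER2 of -0.92 (SE 0.302, adjusted p = 0.422), and FOSL2, a member of the AP-1 family, was at 0.56 (SE 0.143, adjusted p = 0.342 by edgeR and 0.0364 by DESeq2's Wald test), the opposite direction. The rest of the 6, named after their values were seen, were EGR1, EGR3, FOS and IER5. EGR1, like DUSP5, was highest in pig 6, at 234 CPM against 9.32 to 52.5 CPM in the low IMF group. EGR2, IER2, EGR3 and FOS were highest in pig 6 too, as were 10 of the 18 genes in all, while IER5 was highest in pig 3. Without pig 6 the list had 4 higher in the high and 2 in the low IMF group, and its median was -0.15. The log2FC was then -0.64 for EGR2 (SE 0.235), -0.75 for IER2 (SE 0.295) and 0.56 for FOSL2 (SE 0.157).

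Of the receptors and ligands upstream, 3 of 20 were higher in the high and 2 in low IMF pigs, for a median log2FC of -0.10. FGF2, a growth factor whose receptors the Sprouty proteins damp, had 9.97 ± 2.85 CPM (SD, n = 6) in high IMF pigs and averaged 5.90 CPM in low IMF pigs. The log2FC of FGF2 was -0.76 (SE 0.179, adjusted p = 0.280 by edgeR and 0.0179 by DESeq2's Wald test), and all high IMF pigs lay above all low IMF pigs, as in 0.4% of all genes. FGF2 was named for having the smallest p of the list, a choice that favours groups that lie apart. AREG, a ligand of the epidermal growth factor receptor, was at -1.11 (SE 0.371) and INSR at 0.45 (SE 0.163). IGF1R and PDGFRA completed the count and were named after their values were seen.

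In the kinase cascades the medians lay on the other side of 0. Of the RAS-RAF-MEK-ERK cascade, 0 of 23 were higher in the high and 3 in the low IMF group (median 0.10), namely MAPK3, which encodes ERK1, at a log2FC of 0.36 (SE 0.101), the kinase gene ARAF at 0.44 (SE 0.151) and the adaptor gene GRB2 at 0.21 (SE 0.0933). Of the JNK and p38 cascade it was 0 and 1 of 19 (median 0.06), the 1 being MAPKAPK2, a kinase downstream of p38, at 0.56 (SE 0.158), with MAPK8IP1 at 0.46 and MAP3K1 at -0.22 next by p.

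Other inhibitors of MAP kinase and receptor signalling had 4 of 15 higher in high IMF pigs and 0 in low IMF pigs (median -0.15). RASA2 and RASA1, which encode proteins that switch RAS off, had log2FCs of -0.61 (SE 0.172) and -0.25 (SE 0.0870). For both, all high IMF pigs lay above all low IMF pigs, as in 0.4% of all genes. Both were named for having the smallest p of the list, a choice that favours groups that lie apart. SH2B3 was at -0.43 (SE 0.163), and CBLB, named after its value was seen, completed the count. Of the other DUSP and Sprouty relatives, 2 of 17 were higher in the high IMF group, STYXL2 at -1.42 (SE 0.464) and SPRED1 at -0.74 (SE 0.302), which was highest in pig 6 and came to -0.29 (unadjusted p = 0.0627, edgeR) without it, with DUSP3 next by p at 0.18 and a median of -0.01. DUSP1 is also a glucocorticoid-responsive gene. Of 11 others of that kind, SGK1 was higher in the high IMF group (-1.02, SE 0.366) and KLF15 (0.66, SE 0.275) and ZBTB16 (0.54, SE 0.233) in low IMF pigs, for a median of 0.27.

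These counts moved when pigs were left out. Without pig 6, 3 of 15 other inhibitors and 1 of 17 relatives (STYXL2) were higher in high IMF pigs, beside 3.34% of genes tested. In low IMF pigs, 2 of 23 genes of the ERK cascade, 2 of 19 of the JNK and p38 cascade and 0 of 11 glucocorticoid-responsive genes were then higher. Of all genes tested without pig 6, 564 of 14411 were higher in low IMF pigs at the same bound. KLF15 was at 0.52 (unadjusted p = 0.0580, edgeR) and ZBTB16 at 0.42 (unadjusted p = 0.0694, edgeR) in that fit. Without the 6 pigs in doubt by their Y chromosome counts, 7 of 18 ERK-responsive transcription factors were higher in high IMF pigs (median -0.59), beside 2.19% of genes tested. In the ERK cascade 0 of 23 then passed in either direction and the median was -0.02. The median was then -0.04 for the JNK and p38 cascade and -0.13 for glucocorticoid-responsive genes, so that the side of 0 on which these 3 lists lie depends on those pigs.

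**Figure D5:**
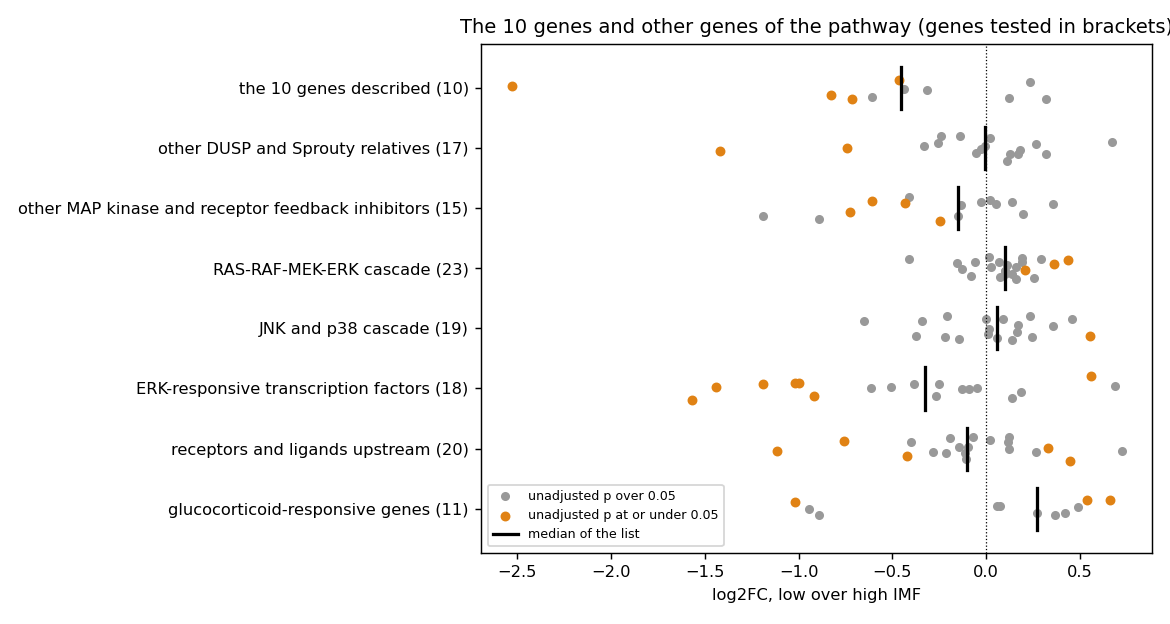
The log2FC of low over high IMF for each gene of the 10 and of 7 lists of related genes, with genes of unadjusted p up to 0.05 in orange, the rest in grey and a black bar at the list median. The medians run from -0.45 for the 10 genes (-0.16 without pig 6) to 0.27 for glucocorticoid-responsive genes, and the points of each list lie on both sides of 0.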

How the data were processed

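The data are RNA sequencing of Semimembranosus muscle from 12 pigs. Per the labels and the study's methods, the authors prepared stranded libraries of polyadenylated RNA, trimmed reads with Trimmomatic, aligned them with HISAT2 to Sscrofa11.1, ran StringTie and counted with HTSeq, and deposited whole-number counts per Ensembl gene, not normalized. The annotation release and strand option are not given in the sources used here, so overlapping genes are uncertain. Which pigs shared a lane or a slaughter day was not analysed here. Groups came from the labels.

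Genes kept by filterByExpr were normalized by TMM and compared with edgeR's quasi-likelihood test (edgeR 4.0.16, R 4.3.3), adjusted by Benjamini-Hochberg over 14262 genes, with a log2FC of low over high IMF. CPM values are TMM-normalized, with a prior count of 2 on the log2 scale. Permutation tests were two-sided, over every arrangement for a gene and 100000 resamples for a correlation (Python 3.11.15, numpy 2.4.6, scipy 1.17.1). Alternatives used DESeq2 1.42.0, limma-voom (limma 3.58.1), other normalizations and filters, a term for labelled sex or age, and fits without each pig. Leaving out pig 6 from lists, or the 6 pigs in doubt, and the sex read from Y chromosome counts were chosen after seeing the data. The tests were tested on simulated data.

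All 10 genes were named, as were the 3 genes of each pathway list with the smallest p (2 of marker lists) and the 3 most alike to each gene. The members and lists were chosen with earlier results of these data known. Promoters and exon lengths are from RefSeq on Sscrofa11.1, matched by symbol for all 10 genes.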

Additional observations from a re-analysis of the deposited data

Results flagged for a closer look

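In each group of 6 pigs, the highest and lowest level of each of the 10 genes was compared with its nearest neighbour by Dixon's criterion, whose critical gap for 6 samples is 0.625 of the range. For normally distributed values chance gives about 1 such group in 20, and 20 groups were looked at. The CPM were not put on a log scale and the 10 genes were measured in the same pigs, so this rate need not hold here. In 5 of them, all in the high IMF group, 1 pig stood apart. Pig 6 was that pig for DUSP5 (46.3 CPM, next 4.62, gap 0.916 of the range), DUSP2 (3.51 CPM, next 1.04, gap 0.849), DUSP6 (19.7 CPM, next 11.0, gap 0.757) and SPRY2 (10.8 CPM, next 5.44, gap 0.684). Pig 1 was that pig for DUSP8 (9.31 CPM, next 5.51, gap 0.718).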

How the results depend on the processing

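Of all genes, 0 were called in the reported fit, 57 by DESeq2's Wald test on the same genes and 64 by that test on all genes with a count, and from 0 to 1 when each pig was left out (1 without pig 5 and 1 without pig 10). None of the 10 genes was called under any alternative, though DUSP5 had no p-value by DESeq2's Wald test and could not be called by it. Without the 6 pigs whose Y chromosome counts went against the labelled sex, 607 genes and 2 of the 10 were at an unadjusted p at or under 0.05 (reported, 1486 and 4), and with each pig left out 3 to 6 of the 10, the most without pig 2. The log2FC of DUSP2 ran from -0.7493 to 0.0756 over fits that left out 1 pig, positive without pig 6, and that of DUSP4 from -0.0208 to 0.3069, negative without pig 3 and without pig 7. Without the 6 pigs DUSP4 was at -0.25 and DUSP8 at -0.23. For these shifts the cause was not tested. The other 7 genes kept their direction in all alternatives tried. Pairs past an adjusted p of 0.05 numbered 0, and from 0 to 3 with each pig left out. There were 2 without pig 7 (DUSP2 with DUSP5, DUSP5 with SPRY2) and 3 without pig 10 (DUSP2 with SPRY2, DUSP5 with DUSP6, DUSP5 with SPRY2). DUSP5 was at -1.16 with limma-voom, -1.94 with labelled sex as a covariate and -2.22 with sex read from the Y chromosome counts as a covariate. The common biological coefficient of variation between pigs was 0.332.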
